A study of Mus musculus with 11 samples.

Results

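The genes of B cells, germinal centres and plasma cells were examined in colon RNA of germ-free and humanized mice. The 32 genes are 14 of mature B cells, 3 of germinal centres and 15 of plasma cells, and they were found by name in a table of 43346 genes. In this table, 30 of the 32 carried their current symbol, and Fcmr and Jchain were found by their Ensembl identifiers under the older symbols Faim3 and Igj. Immunoglobulin gene segments are not among them. All 32 passed the filter on low counts, as did 19863 genes of the whole table, and for 28 of the 32 every germ-free mouse reached the filter's cutoff.

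Both groups were male Swiss Webster mice, an outbred stock, studied at 8 to 10 weeks of age. The 5 germ-free mice carried no microbiota. The 6 humanized mice were raised germ-free and received 300 μL of a human stool suspension by gavage at 4 to 5 weeks of age, followed by 4 to 5 weeks of adaptation. All humanized mice were colonized from a single donor, so the comparison is of that microbiota with none, and the animals of both groups were housed singly. RNA was taken from colonic tissue whose segment and layers are not stated. Genes of muscle, stroma, epithelium and leukocytes were all detected in each library. Counts on genes totalled 49097005 to 64148538 per germ-free and 39125290 to 54219854 per humanized mouse, and neither the labels nor the methods name a batch.

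A mature B cell displays an antibody on its surface, coupled to the signalling chains CD79A and CD79B. B cells activated in a follicle may enter a germinal centre, where antibody genes are mutated and selected, and may then become plasma cells, which lose most B cell surface proteins and secrete antibody. The gut is known for plasma cells that make dimeric IgA, joined by the J chain and carried across the epithelium by the polymeric immunoglobulin receptor. Germ-free mice are known to have few such cells and poorly developed intestinal lymphoid follicles.

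Of the plasma cell genes 6 of 15 were higher in humanized mice, of the mature B cell genes 2 of 14, and of the germinal centre genes none of 3. At a false discovery rate (FDR) below 0.01 by edgeR's exact test, 8 of the 32 genes were higher in humanized mice, 1 was lower and 23 passed in neither direction. Of all genes tested, 9.20% were higher and 10.1% were lower at the same threshold. The 6 plasma cell genes were Jchain, Mzb1, Derl3, Pou2af1, Irf4 and Prdm1. The mature B cell genes Vpreb3 and Cd79a were higher, a share near that of all genes, and Ebf1 was lower. Vpreb3 had passed the filter only through its humanized mice, and with at least 10 counts required in every mouse, 7 genes were higher, 1 of them a mature B cell gene. The median log2-fold change (LFC, humanized over germ-free) was 0.84 for the mature B cell genes, 0.27 for the germinal centre genes and 0.83 for the plasma cell genes, beside 0.01 for all genes tested. All 9 called genes kept their direction under every alternative scaling of the libraries, but Cd79a lost its call under upper-quartile, total-count, epithelial and pan-leukocyte scaling, and Prdm1 under pan-leukocyte scaling. In bulk tissue, more cells of a type and more RNA per cell cannot be told apart.

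Mature B cell genes were more uneven among humanized than among germ-free mice. The coefficient of variation of RPKM, reads scaled to coding length and library size, had a median of 31.8% in germ-free and 90.3% in humanized mice over the mature B cell genes. Plasma cell genes had medians of 19.8% and 43.7%, and all tested genes had medians of 10.4% and 16.5%. A wider spread among humanized mice was not particular to B lineage genes. Medians were 9.01% and 42.5% for pan-leukocyte, 22.1% and 43.5% for T cell, 13.0% and 48.6% for myeloid and 9.29% and 47.0% for fibroblast genes. Of the 6 called plasma cell genes, the values were 50.9% and 50.4% for Derl3, 56.9% and 61.5% for Jchain, 49.7% and 63.3% for Mzb1, 54.1% and 64.9% for Pou2af1, 33.5% and 63.2% for Irf4 and 11.2% and 38.7% for Prdm1. Humanized mice 2 and 3 stood apart. Among the 6 humanized mice, mouse 3 had the highest RPKM for 14 of 14 mature B cell genes and 3 of 3 germinal centre genes, and mouse 2 was second for 13 of the 14 and for all 3.

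**Figure D1:**
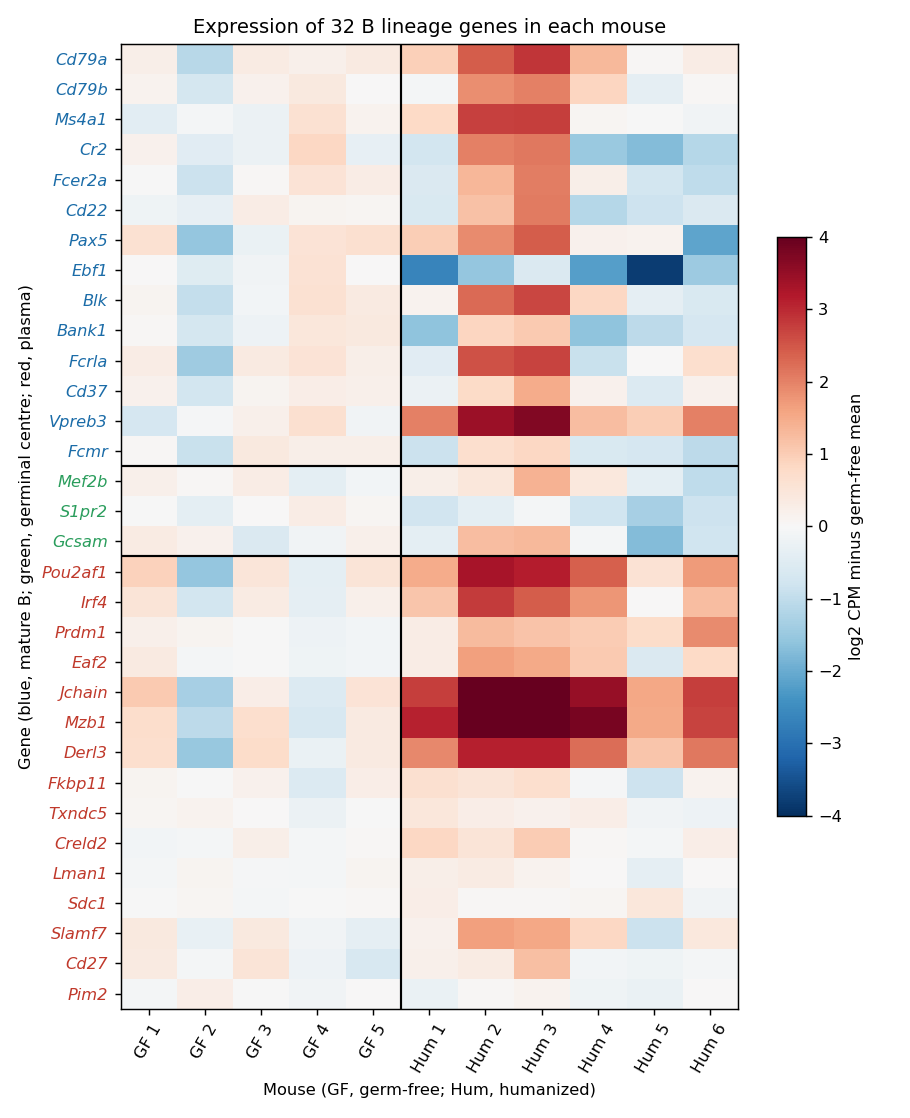
Each row is a gene and each column a mouse, and colour gives log2 CPM minus the mean of the germ-free mice, clipped at 4 in either direction. Humanized mice 2 and 3 are red across nearly all mature B cell genes, whereas Jchain, Mzb1 and Derl3 are red in all 6 humanized mice and Ebf1 is blue in all 6.

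Among the genes of the B cell receptor, Cd79a on chromosome 7 encodes the first signalling chain. Cd79a was at 1.26, 0.485, 1.36, 1.25 and 1.38 RPKM in the 5 germ-free mice, and the humanized group had a lowest value of 1.13, a median of 2.41 and a highest of 8.08. Humanized mice 1 to 4 lay above every germ-free mouse, while mice 5 and 6 lay within the germ-free range. Its LFC was 1.62 (SE 0.51, FDR = 0.00911), just inside the threshold, and the call was lost in 16 of the 23 alternative analyses. Cd79b, the partner chain, was at 1.22, 0.668, 1.23, 1.43 and 1.10 RPKM in germ-free mice and had a lowest value of 0.853, a median of 1.56 and a highest of 4.53 in humanized mice. The groups overlapped, and the LFC of 0.995 (SE 0.44, FDR = 0.0881) did not pass. Blk, a Src family kinase downstream of the receptor, had an LFC of 1.35 (FDR = 0.0933), with 0.0849 to 0.278 RPKM in germ-free and 0.113 to 1.23 in humanized mice.

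Genes for surface proteins of mature B cells were highest in humanized mice 2 and 3. Ms4a1 encodes CD20 and was at 0.131, 0.170, 0.149, 0.274 and 0.199 RPKM in germ-free mice. In humanized mice 2 and 3 it was at 1.24 and 1.26, and the other 4 lay between 0.161 and 0.317. The LFC of Ms4a1 was 1.59 (SE 0.59, FDR = 0.0312), and the gene was called in 1 of 23 alternatives. Without humanized mouse 5 the LFC was 1.77 (FDR = 0.00798), without mouse 2 it was 1.18 (FDR = 0.113) and without mouse 3 it was 1.17 (FDR = 0.0984). Cr2, the complement receptor CD21 of follicular and marginal zone B cells and of follicular dendritic cells, was at 0.413 and 0.439 RPKM in humanized mice 2 and 3 and between 0.0262 and 0.0577 in the other 4. Those 4 values lay below every germ-free mouse (0.0714 to 0.178), so the humanized group spanned both sides of the germ-free range and the LFC of 0.68 had an FDR of 0.544. Fcer2a, the low-affinity IgE receptor CD23, and Cd22, an inhibitory lectin of the B cell receptor, had LFC values of 0.63 (FDR = 0.449) and 0.54 (FDR = 0.519). For both genes, as for Cr2, Bank1, Cd37 and Fcmr, humanized mice 2 and 3 lay above every germ-free mouse and no other humanized mouse did.

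**Figure D2:**
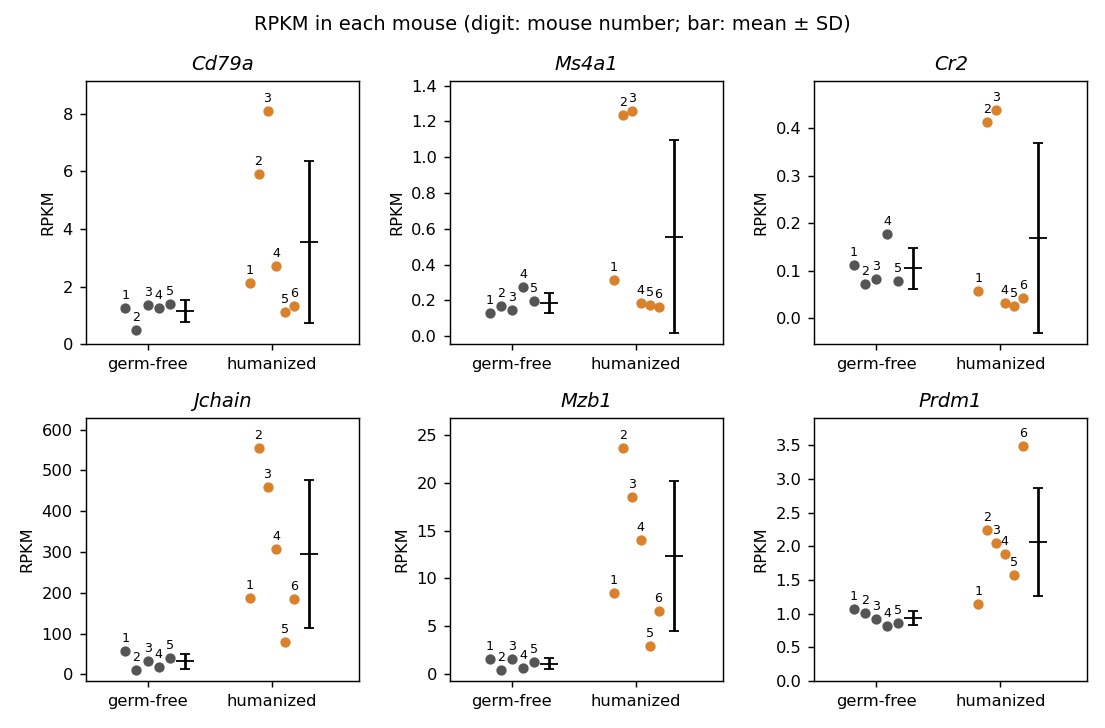
RPKM of 6 genes in each mouse, with the mean and SD beside the points. For Ms4a1 and Cr2 humanized mice 2 and 3 lie far above the other 4, and for Jchain, Mzb1 and Prdm1 all 6 humanized mice lie above all 5 germ-free mice.

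Bank1, a scaffold protein of B cell receptor signalling, had an LFC of −0.14 (FDR = 0.880), and Fcmr, the IgM receptor, one of −0.16 (FDR = 0.834). Cd37, a tetraspanin of B cells and other leukocytes, had an LFC of 0.43 (FDR = 0.407). Fcrla, an intracellular Fc receptor-like protein of B cells, was at 1.02 and 1.15 RPKM in humanized mice 2 and 3, at 0.0736 to 0.263 in the other 4, and at 0.0438 to 0.239 in germ-free mice. Its LFC of 1.39 had an SE of 0.70 and an FDR of 0.131. None of these 4 genes was called, and each of them had a wider spread among humanized than among germ-free mice.

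Of the 2 B cell transcription factors, Ebf1 was lower in humanized mice and Pax5 was not called. Pax5, which holds B cell identity, was scarce, with 1 to 16 counts in germ-free mice and 0 to 41 in humanized mice. Its LFC was 1.11 (SE 0.76, FDR = 0.333). Ebf1, an early B cell factor that stromal and adipose cells express as well, was at 0.653, 0.460, 0.592, 0.967 and 0.660 RPKM in germ-free mice and had a lowest value of 0.0432, a median of 0.179 and a highest of 0.428 in humanized mice. The groups did not overlap, and the LFC was −1.78 (SE 0.43, FDR = 5.94e-04). All 12 smooth muscle genes and 7 of 9 fibroblast genes examined were lower in humanized mice too, with median LFC values of −1.91 and −1.36, and the part of these tissues in the Ebf1 result was not tested.

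Vpreb3, a protein of the B cell endoplasmic reticulum that binds newly made antibody chains, had the highest LFC of the mature B cell genes. It was at 0.0554, 0.111, 0.139, 0.205 and 0.0999 RPKM in germ-free mice and had a lowest value of 0.270, a median of 0.603 and a highest of 2.06 in humanized mice. The counts behind these values were small, from 3 to 11 in germ-free and from 11 to 84 in humanized mice. The filter on low counts asks for 5 mice at its cutoff, which all 6 humanized mice but only 1 germ-free mouse reached for Vpreb3. The gene thus entered the test through the group in which it is high, and its LFC of 2.89 (SE 0.60, FDR = 5.55e-05) and the lack of overlap between the groups are given as a description.

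Of the 3 germinal centre genes, 0 passed edgeR's exact test or its quasi-likelihood test, and 1, S1pr2, had an unadjusted p below 0.05 and was called lower by DESeq2. Mef2b, a transcription factor of germinal centre B cells, had an LFC of 0.40 (FDR = 0.590) on 4 to 28 counts per mouse. Gcsam, a signalling protein of germinal centre B cells, was at 0.464 and 0.487 RPKM in humanized mice 2 and 3, at 0.0492 to 0.180 in the other 4 and at 0.125 to 0.245 in germ-free mice, and its LFC was 0.27 (FDR = 0.759). S1pr2 encodes the sphingosine phosphate receptor that keeps B cells within the germinal centre, and it is expressed outside B cells too. It was at 2.34, 1.80, 2.42, 2.91 and 2.53 RPKM in germ-free mice and had a lowest value of 0.935, a median of 1.37 and a highest of 2.26 in humanized mice. Its LFC of −0.67 (SE 0.20, FDR = 0.0154) missed the threshold. It passed in 6 alternatives, among them without humanized mouse 3 (LFC −0.83, FDR = 6.32e-04) and without germ-free mouse 2 (LFC −0.76, FDR = 0.00915).

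Mzb1, Jchain and Derl3 had the highest LFC values of the plasma cell genes. Jchain on chromosome 5 encodes the J chain that links IgA into dimers and IgM into pentamers. It was at 57.2, 11.02, 32.7, 18.6 and 40.6 RPKM in germ-free mice, and the humanized group had a lowest value of 80.0, a median of 246 and a highest of 555. The groups did not overlap, and Jchain was 9.22-fold higher in humanized mice (LFC 3.21, SE 0.54, FDR = 6.64e-08). Mzb1, an endoplasmic reticulum protein that helps antibody assembly and secretion, was at 1.61, 0.443, 1.57, 0.602 and 1.25 RPKM in germ-free mice and had a lowest value of 2.88, a median of 11.3 and a highest of 23.7 in humanized mice. With no overlap it was 11.3-fold higher (LFC 3.49, SE 0.54, FDR = 1.63e-08), the highest LFC of the 32 genes.

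Derl3, a component of endoplasmic reticulum-associated degradation that is rich in secretory cells, was at 0.819, 0.157, 0.858, 0.408 and 0.653 RPKM in germ-free mice. In humanized mice its lowest value was 1.12, its median 2.36 and its highest 4.57, above every germ-free mouse, with an LFC of 2.28 (SE 0.45, FDR = 2.28e-05). The 5 members of the list whose groups did not overlap with humanized mice higher were Vpreb3, Prdm1, Jchain, Mzb1 and Derl3, and Ebf1 was the only one whose groups did not overlap in the other direction. Of all genes tested, 8.67% and 9.73% had such groups.

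Transcription factors of the plasma cell programme followed. Prdm1 encodes BLIMP-1, the repressor that drives plasma cell differentiation, and it is expressed in T cells and epithelium as well. It was at 1.07, 1.01, 0.925, 0.817 and 0.860 RPKM in germ-free mice, and at 1.14 to 3.49 with a median of 1.97 in humanized mice. The highest value belonged to humanized mouse 6, not to mouse 2 or 3, and the LFC was 1.14 (SE 0.23, FDR = 8.12e-05). Under pan-leukocyte scaling it was 0.81 (FDR = 0.0605). Irf4, required for plasma cell formation, was at 0.713, 0.296, 0.627, 0.384 and 0.573 RPKM in germ-free mice and had a lowest value of 0.496, a median of 1.43 and a highest of 3.45 in humanized mice. Humanized mouse 5 lay within the germ-free range, the other 5 above it, and the LFC was 1.76 (SE 0.44, FDR = 7.56e-04). Pou2af1, the coactivator OCA-B of octamer-dependent antibody gene transcription, was at 1.06, 0.179, 0.780, 0.412 and 0.786 RPKM in germ-free mice and at 0.820 to 5.48 with a median of 2.39 in humanized mice. Again only humanized mouse 5 lay within the germ-free range, with an LFC of 2.18 (SE 0.53, FDR = 5.58e-04). By the quasi-likelihood test Pou2af1 (FDR = 0.01001) and Irf4 (FDR = 0.0107) fell just short of the threshold. Eaf2, an elongation factor partner, had an LFC of 0.97 (FDR = 0.0297). It was called in 1 of 23 alternatives, without humanized mouse 5 (LFC 1.15, FDR = 3.20e-04), and had its lowest LFC, 0.45 (FDR = 0.480), under pan-leukocyte scaling.

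Promoter sequence was searched for motifs that B lineage and secretory genes are known to use, in the 250 bases before the start of each gene in RefSeq on GRCm38.p6, for the 27 of 32 genes found there. On both strands, CCAAT and CCACG 9 bases apart, an endoplasmic reticulum stress element, were found for Derl3 and Creld2 and in 0.113% of 32851 promoters. The unfolded protein response element TGACGTG was found for Pou2af1 and Txndc5 (1.65% of promoters) and the octamer ATGCAAAT for Vpreb3, Mef2b and Pim2 (1.60%). TCCC and GGGA 2 bases apart, for early B cell factor, were found for Cd22 (0.779%), and GGAA and GAAA 2 bases apart, for a PU.1 and IRF pair, for Bank1 (2.30%). A match is a description of letters, not of binding. For Vpreb3, Cd22 and Txndc5 the matched window lies inside the span of the gene as counted, not before it. Vpreb3 as counted spans chr10:75943057-75949657, and its window holds 0 exon bases by GENCODE release M21. All 127 bases of the Txndc5 window are exon there. The windows of 4 genes whose levels are given here are shown with the motif in capitals and 60 bases of flank where the searched stretch reaches that far. None of the 4 holds a second of the motifs searched. Derl3 lies at chr10:75893182-75893320, Creld2 at chr15:88819460-88819598, Pou2af1 at chr9:51213569-51213689 and Vpreb3 at chr10:75948195-75948299, all on the plus strand, and the motifs of Derl3, Creld2 and Vpreb3 read on the opposite strand.
Derl3: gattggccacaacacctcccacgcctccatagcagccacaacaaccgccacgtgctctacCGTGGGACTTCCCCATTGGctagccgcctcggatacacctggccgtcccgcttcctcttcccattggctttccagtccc
Creld2: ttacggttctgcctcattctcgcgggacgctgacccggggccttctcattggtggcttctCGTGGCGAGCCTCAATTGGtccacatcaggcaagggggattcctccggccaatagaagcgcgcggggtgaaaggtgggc
Pou2af1: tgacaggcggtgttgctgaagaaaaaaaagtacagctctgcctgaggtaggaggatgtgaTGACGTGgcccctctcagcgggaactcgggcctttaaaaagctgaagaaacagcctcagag
Vpreb3: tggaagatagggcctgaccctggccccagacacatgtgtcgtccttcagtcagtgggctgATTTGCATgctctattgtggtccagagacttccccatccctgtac

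The other endoplasmic reticulum and surface genes of plasma cells were not called. Txndc5, Sdc1, Lman1, Fkbp11 and Creld2 lay at percentiles 63.1 to 98.0 of the mean RPKM of all tested genes. Txndc5, a protein disulfide isomerase, was at 97.2 to 127 RPKM in germ-free and 99.99 to 156 in humanized mice (LFC 0.15, FDR = 0.415). Sdc1, the syndecan CD138 that marks plasma cells and also covers epithelial cells, was at 55.7 to 61.9 and 53.0 to 80.8 RPKM (LFC 0.14, FDR = 0.353). Its highest value came from humanized mouse 5, the mouse with the lowest Jchain of the humanized group. Lman1, a cargo receptor of the secretory pathway, had an LFC of 0.08 (FDR = 0.647), and Fkbp11, a peptidyl-prolyl isomerase, one of 0.24 (FDR = 0.557). Creld2, an endoplasmic reticulum protein induced by the unfolded protein response, whose promoter is shown with that of Derl3, was at 15.4 to 19.8 RPKM in germ-free and 15.8 to 34.1 in humanized mice. Its LFC of 0.49 (SE 0.18, FDR = 0.0415) did not pass. In the alternatives it ran from 0.14 (FDR = 0.857, pan-leukocyte scaling) to 0.58 (FDR = 0.00338, without humanized mouse 5), and the latter was the only call among 23. Beside these, 7 of 12 endoplasmic reticulum folding genes outside the list were higher in humanized mice, with a median LFC of 0.51.

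Slamf7, a receptor of plasma cells and other lymphocytes, was at 1.75 and 1.65 RPKM in humanized mice 2 and 3 and at 0.434 to 0.731 in germ-free mice. Humanized mice 4 (0.999) and 6 (0.750) also lay above every germ-free mouse, mouse 1 (0.631) lay within their range and mouse 5 (0.304) below it. The LFC was 0.83 (SE 0.38, FDR = 0.106), and over the alternatives it ran from 0.29 (FDR = 0.6999, pan-leukocyte scaling) to 1.02 (FDR = 0.00614, without humanized mouse 5), the only 1 of 23 in which Slamf7 was called. Cd27, a receptor of memory B cells, plasma cells and T cells, had an LFC of 0.27 (FDR = 0.592), with humanized mouse 3 at 1.66 RPKM and the other 5 between 0.633 and 0.902. Pim2, a survival kinase, had an LFC of −0.08 (FDR = 0.760) and the smallest coefficient of variation of the 32 genes in humanized mice, 12.4%.

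**Figure D3:**
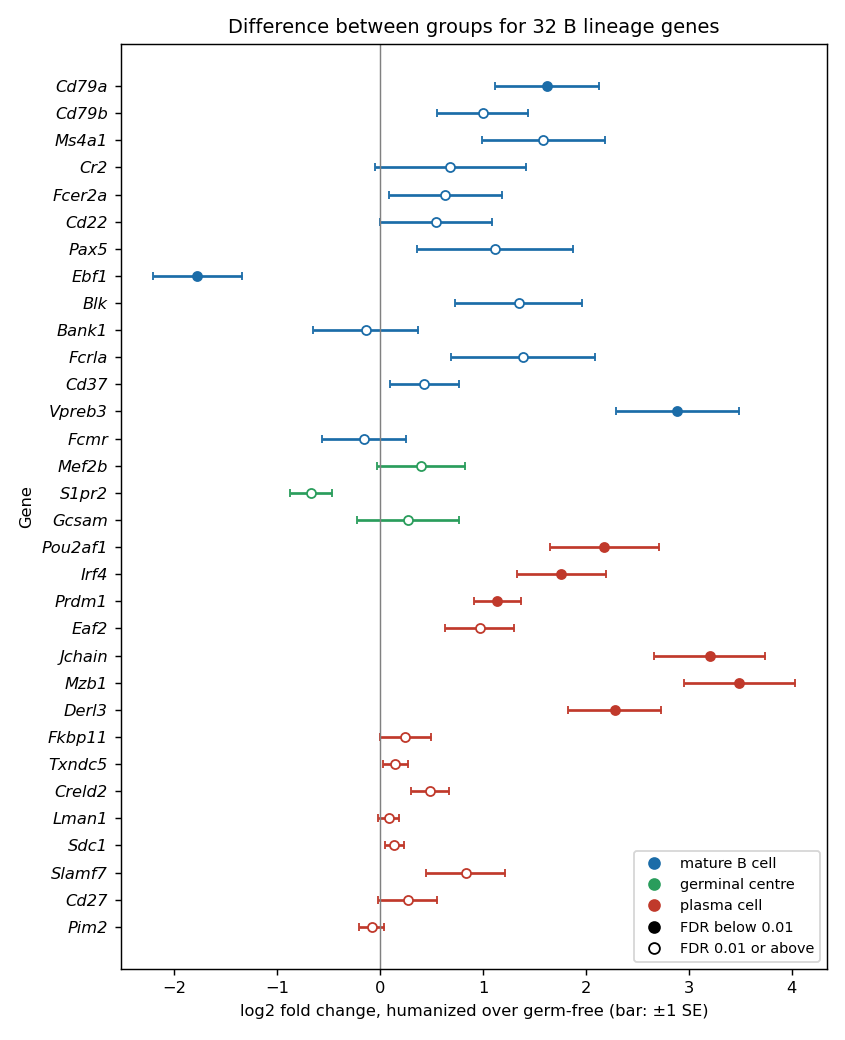
Log2-fold change of each gene, humanized over germ-free, with bars of 1 SE from the quasi-likelihood fit and filled points at FDR below 0.01. The filled points are Jchain, Mzb1, Derl3, Pou2af1, Irf4, Prdm1, Vpreb3 and Cd79a on the right and Ebf1 on the left.

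The values were also summed by mouse. The summed RPKM of the 14 mature B cell genes was 3.61 to 8.03 in germ-free mice and 6.30, 20.4, 27.1, 7.90, 4.35 and 5.86 in humanized mice 1 to 6. Only mice 2 and 3 lay above the germ-free range. The sum of the 15 plasma cell genes, which Jchain, Txndc5 and Sdc1 dominate, was 213 to 279 in germ-free mice and 485, 848, 748, 569.6, 302 and 398 in humanized mice 1 to 6. All 6 lay above the germ-free range, and mice 2 and 3 were again the highest and mouse 5 the lowest of the group. Among the dominating genes, only Jchain had groups without overlap, at most 57.2 RPKM in germ-free and at least 80.0 in humanized mice. The groups overlapped for Txndc5 and Sdc1. A sum without Jchain was not tested, so the separation of the sums is not a result for the 15 genes as a set. Counted gene by gene, mouse 2 and mouse 3 each exceeded every germ-free mouse for 13 of 14 mature B cell genes, and mice 1, 4, 5 and 6 did so for 4, 4, 1 and 2. Those 4 mice lay below every germ-free mouse for 4, 4, 4 and 6 of the 14. Of the 15 plasma cell genes, humanized mice 1 to 6 exceeded every germ-free mouse for 11, 12, 13, 10, 5 and 9, and mouse 5 lay below every germ-free mouse for 5. Humanized mouse 5 had the lowest value of the humanized group for 11 of 15 plasma cell genes and 6 of 14 mature B cell genes.

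Ratios within a library give the balance of the genes without scaling between libraries. Jchain over Cd79a was 14.9 to 45.3 in germ-free mice and 56.9 to 138 in humanized mice, and Mzb1 over Cd79a was 0.480 to 1.28 and 2.30 to 5.20. In both cases the groups did not overlap, and humanized mouse 3 had the lowest ratio of its group. Other ratios were lower in humanized mice or overlapped. Derl3 over Jchain was 0.0143 to 0.0262 in germ-free and 0.00803 to 0.0140 in humanized mice, without overlap. Cd79b over Cd79a was 0.794 to 1.38 and 0.482 to 0.842, and Mzb1 over Jchain 0.0282 to 0.0479 and 0.0356 to 0.0458, both with overlap. Jchain over Igha, the IgA heavy chain, was 0.378 to 0.451 in germ-free and 0.395 to 0.548 in humanized mice, and the groups overlapped. Igha itself was 8.37-fold higher in humanized mice (LFC 3.07, FDR = 1.36e-07) and Igkc, the kappa light chain, 8.67-fold higher (LFC 3.12, FDR = 9.45e-08).

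Genes of the same lineages outside the 32 were counted in the same fit. Of 9 other plasma cell genes tested 6 were higher, among them Tnfrsf13b, a survival receptor (LFC 1.46), and Tent5c (LFC 1.19). Tnfrsf17, the survival receptor BCMA, had 10, 0, 3, 0 and 16 counts in germ-free and 15 to 61 in humanized mice, and it too reached the filter's cutoff in all 6 humanized mice but in 1 germ-free mouse, so its LFC of 3.32 is a description. Xbp1, the transcription factor of secretory cells, was higher by an LFC of 0.60 (FDR = 1.52e-06). Of 18 other mature B cell genes 3 were higher, Spib (LFC 1.27), Lyn (LFC 0.78) and Ralgps2 (LFC 0.29). Of 8 other germinal centre genes tested 2 were higher, Rgs13 (LFC 1.55), also known from tuft cells, and Nuggc (LFC 2.09), which reached the cutoff in 6 humanized but 2 germ-free mice, and Bcl6 had an LFC of −0.25 (FDR = 0.305).

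Signals that attract or sustain B cells moved in both directions. Of 9 survival and homing genes tested 4 were higher and 1 was lower, led in size by Cxcl12 (LFC −1.33, FDR = 7.23e-04), Ccl28, a chemokine for IgA plasma cells (LFC 1.22, FDR = 1.11e-17), and Pigr, the polymeric immunoglobulin receptor (LFC 1.21, FDR = 7.94e-26). Of 9 lymphoid follicle genes tested Ccl20 was higher (LFC 1.68) and Ccl21a (LFC −1.08) and Coch (LFC −1.02) were lower. Cxcl13, the chemokine of B cell follicles, had an LFC of 0.45 (FDR = 0.547), with 10.5 and 7.40 RPKM in humanized mice 2 and 3, 0.647 in mouse 5 and 2.91 to 4.50 in germ-free mice.

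Markers of other cells differed among the mice as well. Humanized mice 2 and 3 had summed RPKM of 55.6 and 59.4 over 8 pan-leukocyte genes, against 25.7 to 31.4 in germ-free mice and 21.3 to 37.5 in the other humanized mice. Of those 8 genes only Cytip was higher (LFC 0.97). Of 12 T cell genes 6 were higher, led by Cd8a (LFC 1.74), Cd3d (LFC 1.37) and Cd3e (LFC 1.15), and their sum was 7.11 to 9.40 RPKM in germ-free mice and 11.2 to 22.7 in humanized mice. The summed RPKM of 12 smooth muscle genes was 428 to 1199 in germ-free and 63.6 to 425 in humanized mice, lowest in mouse 5, and that of 9 fibroblast genes was 221 to 351 and 28.7 to 185. Epithelial genes gave 2 of 11 and goblet cell genes 4 of 8 higher, and myeloid genes gave 1 higher and 1 lower of 12. The part of leukocyte content and of the lower muscle and stroma share in the values of the 32 genes was not tested.

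**Figure D4:**
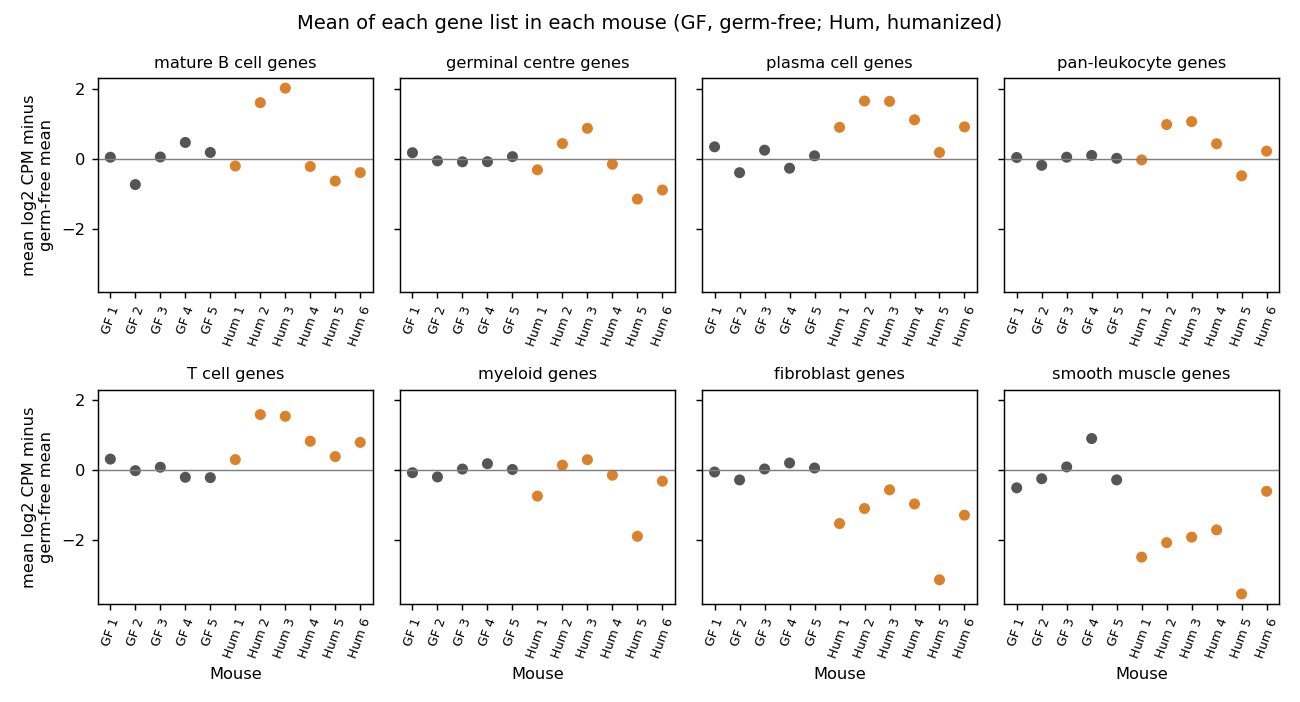
Each panel gives, for every mouse, the mean over a gene list of log2 CPM minus the mean of the germ-free mice. Humanized mice 2 and 3 stand at 1.60 and 2.01 for mature B cell genes and at 0.98 and 1.06 for pan-leukocyte genes. For mature B cell genes, humanized mice 1, 4, 5 and 6 stand at −0.21, −0.22, −0.64 and −0.40. These 4 values are below the germ-free mean but within the germ-free range of −0.74 to 0.46. Humanized mouse 5 is lowest for fibroblast (−3.12) and smooth muscle (−3.53) genes.

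The gene models limit some of these values. TruSeq libraries of this kind do not mark the strand, so reads from a gene and an overlapping neighbour cannot be told apart. Of the 32 genes, 11 overlap in the deposited table the span of another gene, among them Mef2b and Cd27, whose spans lie wholly within 2310045N01Rik and Vamp1, and Ms4a1, within 4930526L06Rik. Exons were compared by GENCODE release M21 on GRCm38, while the release behind the counts is not given in the sources used here. There Ms4a1 and Mef2b share no exon bases with another gene and Cd27 shares 5.54%, while 57.2% of the exon bases of Mzb1, whose span overlaps no other gene in the deposited table, are shared with a gene annotated as SPATA24. Jchain, Derl3, Prdm1, Irf4 and Pou2af1 share no exon bases with another gene there.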

How the data were processed

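Per the labels and methods, the authors sequenced 101 bp paired-end TruSeq libraries, aligned reads to mm10 with TopHat, and deposited raw featureCounts counts per gene in 1 table, with positions and a coding length whose derivation is not stated in the sources used here. The columns were mapped to mice by their names.

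Counts were analysed with R 4.3.3 and edgeR 4.0.16 after the study's methods: filterByExpr (minimum count 10, minimum total count 15), TMM normalization, estimateDisp, exact test, and Benjamini–Hochberg adjustment over 19863 genes, with FDR below 0.01. Standard errors come from the quasi-likelihood fit. RPKM values use TMM-normalized libraries and the deposited coding length. Heat map values are log2 CPM with a prior count of 2. DESeq2 1.42.0, other scalings, other filters and leaving out each mouse were alternatives. The exact test and the quasi-likelihood test were tried on simulated counts, and the other analyses were not.

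The 32 genes and all lists were chosen with earlier results of these data known. Named beside the 32 were at most the 3 genes with the largest LFC past the threshold from each other list, and Bcl6, Xbp1, Tnfrsf17, Cxcl13, Igha and Igkc. Libraries differed within groups by more than counting error (mean chi-square per gene 21.2 to 132), so none was a duplicate. With 5 against 6 mice, the smallest p of an exact permutation test is 0.00216. The listed gene Fdcsp was not matched, and protein sequences were not analysed here. Some genes of these lists are not reported here.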

Additional observations from a re-analysis of the deposited data

Results flagged for a closer look

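In 5 of 64 groups, each a gene of the 32 in the germ-free or the humanized mice, a single mouse lay far from the rest by Dixon's criterion at the 95% level. Chance flags about 1 in 20 groups. Germ-free mouse 2 was the low one for Cd79a (0.485 RPKM, the next lowest 1.25), Fcrla (0.0438, the next lowest 0.189) and Cd37 (0.605, the next lowest 1.09). This mouse also had the lowest share of counts on immunoglobulin segments, 0.0161%, where the other germ-free mice had 0.0318% to 0.0908%. Germ-free mouse 1 was the high one for Eaf2, a plasma cell gene, at 0.323 RPKM with 0.243 the next highest. Humanized mouse 3 was the high one for Cd27 at 1.66 RPKM with 0.902 the next highest, and without this mouse the LFC of Cd27 was −0.0085.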

How the results depend on the processing

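Against the 8 genes higher and 1 lower as reported, the quasi-likelihood test called 5 higher, 1 of them a mature B cell gene, and 1 lower, with Pou2af1 (FDR = 0.01001), Irf4 (FDR = 0.0107) and Cd79a (FDR = 0.0318) losing their calls. The genes called lower were 2 (S1pr2 beside Ebf1) with DESeq2's Wald test, total-count scaling, scaling to pan-leukocyte genes, at least 10 counts in every mouse and FDR below 0.05. The mature B cell genes called higher were 1 instead of 2 under upper-quartile, total-count, epithelial and pan-leukocyte scaling and no low-count filter, Cd79a being lost, and 1 with at least 10 counts in every mouse, a filter that removes Vpreb3. At FDR below 0.05, 11 genes were higher, 3 of mature B cells and 8 of plasma cells. No germinal centre gene was called higher in any of these analyses. Leaving out each mouse in turn gave 7 to 12 genes higher, 1 to 2 lower, 1 to 3 mature B cell genes, 6 to 9 plasma cell genes and 6 to 8 genes without overlap. The upper ends for higher genes came without humanized mouse 5, which added Ms4a1, Eaf2, Creld2 and Slamf7. Cd79a lost its call without any germ-free mouse or humanized mouse 2, 3 or 4 (FDR 0.0120 to 0.0361), and Prdm1 under pan-leukocyte scaling (LFC 0.81, FDR = 0.0605).

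Scaling to total counts, epithelial markers and pan-leukocyte genes moved the median LFC of all genes to −0.18, −0.23 and −0.26. Genes without a call changed sign. Under pan-leukocyte scaling LFC values were Cr2 −0.078, Cd22 −0.11, Cd37 −0.061, Mef2b −0.086, Gcsam −0.35, Fkbp11 −0.15, Txndc5 −0.15, Lman1 −0.24, Sdc1 −0.074 and Cd27 −0.14. Under total counts they were Txndc5 −0.036, Lman1 −0.10 and Sdc1 −0.057, and under epithelial scaling Txndc5 −0.078, Lman1 −0.13 and Sdc1 −0.11. Without single mice, Cd22 ranged from −0.14 to 0.73, Bank1 from −0.56 to 0.040, Mef2b from −0.017 to 0.60, Gcsam from −0.074 to 0.48 and Cd27 from −0.0085 to 0.41. The cause of these changes was not tested. Of 731 alternative values, 668 kept direction and side of the threshold, 30 lost a call, 10 gained one and 23 changed sign.

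The replicate numbers do not pair the mice, whose deviations correlated by −0.13 to 0.09 within numbers. A fit with the replicate number as a block called 0 genes in either direction, 0 mature B cell and 0 plasma cell genes (at unadjusted p below 0.05, 9 higher and 2 lower), against 5 higher, 0 lower and 1 mature B cell gene without the block in the same 10 mice. Germ-free counts as low as 3 for Vpreb3 limit the precision of its fold change.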
